A study of Mus musculus with 4 samples.

Results

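The 9 genes described here act at the entry of fatty acids into liver cells: Cd36, Fabp1, Fabp2, Fabp4, Slc27a2, Slc27a4, Acsl1, Acsl3 and Acsl5. They were taken by symbol from the authors' deposited table of 24138 genes, and each had 1 entry. The livers came from 4 male C57BL/6J mice aged 18 weeks, all of which had received the FAT-MASH diet together with resolvin D1 (RvD1). MASH is metabolic dysfunction-associated steatohepatitis, in which fat, inflammation and scarring build up in the liver, and RvD1 is a lipid mediator made from docosahexaenoic acid. RNA was taken from whole liver and sequenced after poly(A) enrichment. Dose and duration are not given in the labels used here. The animals form 1 group, livers 1 to 4 by the numbers in the labels, so the data hold no contrast that would show what RvD1 or the diet did. What follows gives the level of each gene, its spread between animals and its place among related genes.

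Long-chain fatty acids reach the hepatocyte bound to albumin or after lipases release them from lipoproteins. CD36 is a membrane glycoprotein that binds them and promotes their entry, and the fatty acid transport proteins, encoded by the Slc27a genes, are membrane proteins with acyl-CoA synthetase activity. Inside the cell, small fatty acid binding proteins (Fabp genes) carry the water-insoluble ligands, and long-chain acyl-CoA synthetases (Acsl genes) join them to coenzyme A. That activation traps the fatty acid and commits it to triglyceride synthesis, to membrane lipids or to oxidation. Several of these genes are textbook targets of the nuclear receptors PPAR alpha and PPAR gamma.

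Values are in FPKM, fragments scaled by transcript length and by the number of mapped fragments, so that genes can be set side by side within a liver. Library depth was estimated from the lowest values at 18.8 to 20.1 M fragments, and in livers 2 and 4 this estimate, with the counting errors drawn from it, rests on the window chosen for those values. Pearson's r between livers was 0.977 to 0.987 across 10541 expressed genes (mean of at least 1 FPKM), which are not independent replicates. Hepatocyte transcripts defined the tissue, with Apoa1 between 11922 and 15343 FPKM. Liver 2 was the highest for all 6 acute phase genes examined, as it was for 22.0% of expressed genes. Its excess over the next liver ran from 1.34-fold for Hpx to 19.7-fold for Saa2. Saa1 was at 139, 2135, 45.6 and 131 FPKM in livers 1 to 4.

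The stretches upstream of 4 members are shown first. Fabp1, Fabp2 and Slc27a2 shared their order of livers as deposited, though not under other scalings, and Slc27a4 had the least spread of the 9 genes. Each line gives the last 120 bases before the annotated start, from RefSeq on GRCm38.p6, on the plus strand, 5′ to 3′. Capitals mark matches to the motifs named after the sequences.
Fabp1 (chr6:71199759-71199878): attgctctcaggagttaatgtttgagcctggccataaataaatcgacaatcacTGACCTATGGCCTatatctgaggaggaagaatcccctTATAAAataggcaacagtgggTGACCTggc
Fabp2 (chr3:122894952-122895071): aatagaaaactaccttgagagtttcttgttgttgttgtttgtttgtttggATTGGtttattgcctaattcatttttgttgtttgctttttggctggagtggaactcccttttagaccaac
Slc27a2 (chr2:126552904-126553023): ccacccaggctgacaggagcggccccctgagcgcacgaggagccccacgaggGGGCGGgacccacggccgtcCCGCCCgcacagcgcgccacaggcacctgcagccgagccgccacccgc
Slc27a4 (chr2:29802514-29802633): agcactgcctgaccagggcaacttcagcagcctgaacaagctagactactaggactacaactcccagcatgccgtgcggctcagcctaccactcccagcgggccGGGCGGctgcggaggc

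Motifs were searched on both strands in the 250 bases before the start, in 9 windows that covered 8 of the members, with 2 windows for Acsl1 and with those of Cd36 and Acsl5 at inner starts of their RefSeq genes. Positions count back from -1, the base before the start. A repeat of the nuclear receptor half-site with a spacing of 1 base, AGGNCANAGGNCA, is the arrangement that PPAR and RXR dimers bind. It was found in the Fabp1 window only among the members, on the minus strand from -67 to -55, and in 0.338% of all 32851 windows. The single half-site AGGTCA was found for Fabp1, Cd36 and Slc27a2, and in 14.0% of all windows. In Fabp1 it lay within that repeat, from -67 to -62, and again apart from it, from -9 to -4. The TATA box TATAAA was found for Fabp1 only, from -30 to -25, and in 12.4% of all windows. The GC box GGGCGG was found in 5 of the 9 windows, those of Acsl3, Slc27a4, Slc27a2, Cd36 and Acsl1, and in 32.7% of all windows. The CCAAT box was found for Acsl3, Fabp2, Cd36, Acsl1 and Acsl5, and in 33.8% of all windows. The GC content of the printed stretches was 44.2% for Fabp1, 35% for Fabp2, 79.2% for Slc27a2 and 64.2% for Slc27a4. A match is a description of the letters and does not show that a factor was bound.

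All 9 genes were expressed, and each was above 1 FPKM in every liver. Their means ran from 11.8 FPKM for Slc27a4 to 10649.7 FPKM for Fabp1, whereas the median of all expressed genes was 7.83 FPKM. Together they held 2.31 ± 0.234% of the summed FPKM of a liver (SD, n = 4).

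**Figure D1:**
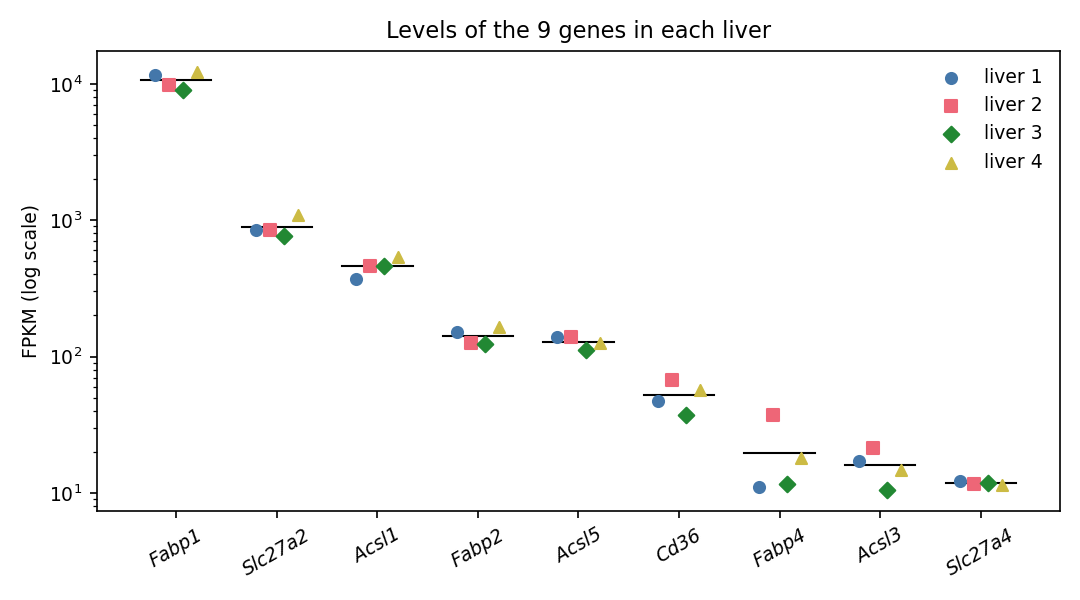
FPKM of each gene in the 4 livers on a log scale, ordered by mean; each point is 1 liver and the line is the mean of 4. Fabp1 lies far above the others, at 8982 to 12264 FPKM, and Slc27a4 shows the tightest points, at 11.5 to 12.3 FPKM.

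Uptake at the membrane was represented by Cd36. Cd36 (XLOC_016372, chromosome 5, 17781690 to 17888959) was at 47.2, 67.1, 37.0 and 57.0 FPKM in livers 1 to 4, a mean of 52.1 ± 12.9 FPKM (SD, n = 4). Liver 2 was the highest and liver 3 the lowest, a 1.81-fold range. The SD of log2(FPKM + 1) was 0.36, which lay above that of 95% of expressed genes.

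Of the transport proteins, Slc27a2 (FATP2, chromosome 2, 126553024 to 126588243), which also activates very long-chain fatty acids in peroxisomes and the endoplasmic reticulum, was at 853, 849, 763 and 1090.1 FPKM in livers 1 to 4. Liver 4 was 1.28-fold above the next highest liver, while livers 1 and 2 differed by less than the counting error of up to 0.724% at the estimated depth. The mean was 889 ± 140.3 FPKM (SD, n = 4), rank 78 of all genes in the table. Slc27a4 (FATP4, chromosome 2, 29802680 to 29817522), the main form of the intestine, was at 12.3, 11.6, 11.8 and 11.5 FPKM, a 1.07-fold range. Its coefficient of variation over livers was 2.80%, below the 3.46% that counting error alone would give at the estimated depth in its least covered liver. Its SD of 0.04 was above that of only 1.32% of expressed genes.

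Within the Slc27a family, Slc27a2 held 63.7 ± 3.9% of the FPKM and Slc27a5, the bile acid CoA ligase and very long-chain synthetase, held 35.1 ± 3.84% (SD, n = 4). Slc27a4 held 0.855 ± 0.0998% and Slc27a1, the insulin-sensitive form of muscle and fat, 0.366 ± 0.0258% (SD, n = 4). Slc27a3 and Slc27a6 were below 1 FPKM in all 4 livers. Slc27a5 was at 455, 435, 535 and 520 FPKM in livers 1 to 4, so that the ratio of Slc27a2 to Slc27a5 was 1.88, 1.95, 1.43 and 2.09. Liver 3 had the lowest ratio, with the lowest Slc27a2 and the highest Slc27a5.

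Of the Fabp transcripts, Fabp1 was the most abundant. Fabp1 (L-FABP, XLOC_017296, chromosome 6, 71199888 to 71205023), the abundant binding protein of hepatocytes, was at 11557, 9797, 8982 and 12264 FPKM in livers 1 to 4. It held 98.1 ± 0.184% of the FPKM of the Fabp family (SD, n = 4) and ranked 4 among all genes of the table. Fabp2 (I-FABP, chromosome 3), the intestinal form, was at 150.2, 126, 123 and 166 FPKM and held 1.30 ± 0.0410% (SD, n = 4). Its deposited span, 122882592 to 122924116, is wider than the RefSeq span of Fabp2, 122895072 to 122899506. The deposited span overlaps the lncRNA 4933405D12Rik, so fragments of the 2 genes may not have been kept apart. Of 7 markers of intestinal epithelium, Vil1 was at most 0.265 FPKM, Cdh17 at most 0.0665 FPKM and Muc2 at most 0.0210 FPKM, and Alpi and Sis were listed at 0 in all livers. The other two were expressed, Lgals4 at up to 10.2 FPKM and Apoa4, an apolipoprotein that hepatocytes also make, at 2779 to 4385 FPKM.

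Fabp1 and Fabp2 kept almost the same ratio in every liver, at 76.9, 77.6, 72.9 and 73.9 in livers 1 to 4, which no scaling between livers can alter. The root-mean-square difference of their deviations was 0.04 on the log2 scale, the smallest of the pairs of members, and Fabp2 ranked 38 in nearness to Fabp1 among the 6537 genes that averaged 5 FPKM or more. Both genes, together with Slc27a2, were highest in liver 4, followed by livers 1, 2 and 3 in that order, where the places of livers 1 and 2 in Slc27a2 lay within counting error. This order was found in 6.64% of expressed genes. It depended on the scaling, since median-ratio scaling left 2 of the members in the order of Fabp1 and scaling each liver to the same total left 1, Fabp1 itself.

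Fabp4 (aP2, chromosome 3, 10204343 to 10208576), the binding protein of adipocytes, capillary endothelium and macrophages, was the most variable member. It was at 11.1, 37.5, 11.6 and 18.2 FPKM in livers 1 to 4. Liver 2 was 2.07-fold above the next highest liver, and livers 1 and 3 were close together. The mean was 19.6 ± 12.4 FPKM (SD, n = 4), and the SD of 0.78 on the log2 scale lay above that of 99.5% of expressed genes. The coefficient of variation was 63.2%, against at most 8.02% from counting error at the estimated depth. Fabp5, the epidermal form that macrophages also express, was at 37.2, 47.6, 33.4 and 39.7 FPKM, and the ratio of Fabp5 to Fabp4 lay between 1.27 in liver 2 and 3.35 in liver 1. Fabp7 had a mean of 1.48 FPKM. Fabp3, the heart form, was at most 0.296 FPKM and Fabp12 at most 0.0498 FPKM, and Fabp6, Fabp9 and Pmp2 were listed at 0.

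Markers of cells that express Fabp4 or Cd36 were set beside these values. Of 7 adipocyte markers, Plin1, Lep, Retn and Adig were listed at 0 in all livers, Adipoq was at most 0.0528 FPKM and was listed at 0 in liver 2, and Cidea was at most 0.454 FPKM. The remaining marker, Cfd, was highest in liver 4, at 4.49 FPKM, and was at 0.961 FPKM in liver 2. A value listed at 0 can be a failed estimate in such a table. Of 6 endothelial markers, 4 were highest in liver 2. Kdr was at 2.04, 5.06, 3.85 and 3.92 FPKM and Pecam1 at 3.99, 6.56, 3.47 and 4.92 FPKM in livers 1 to 4. The summed level of the 6 was 41.9, 54.5, 46.7 and 53.3 FPKM in livers 1 to 4. Clec4g alone made up 26.7, 28.5, 28.4 and 33.6 FPKM of these sums. Of 7 macrophage markers, as deposited, 5 were highest in liver 4 and 2 in liver 2, and 5 were lowest in liver 3, with summed levels of 111, 136, 102 and 153 FPKM. In liver 4, Cd68, Clec4f and Trem2 were only 1.09-fold, 1.05-fold and 1.03-fold above liver 2, so the count for liver 4 depends on the scaling. Among all expressed genes 33.3% were highest in liver 4 and 22.0% in liver 2, while 29.9% were lowest in liver 2, 31.4% in liver 3 and 18.1% in liver 4. Of 6 markers of stellate cells and fibroblasts, 4 were highest in liver 2, 3 were lowest in liver 3 and 3 were lowest in liver 4, with summed levels of 228, 289, 186 and 209 FPKM. Dcn, the matrix proteoglycan decorin, was at 140, 194, 117 and 141 FPKM, so liver 2 was highest and liver 3 lowest, as for Cd36 and Acsl3. Of 6 hepatocyte markers, 4 were lowest in liver 2. In whole liver, more cells of a type and more RNA per cell cannot be told apart, and the part of these cells in the levels of Fabp4, Cd36 and Acsl3 was not tested. Nor was the part of the acute phase transcripts of liver 2.

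**Figure D2:**
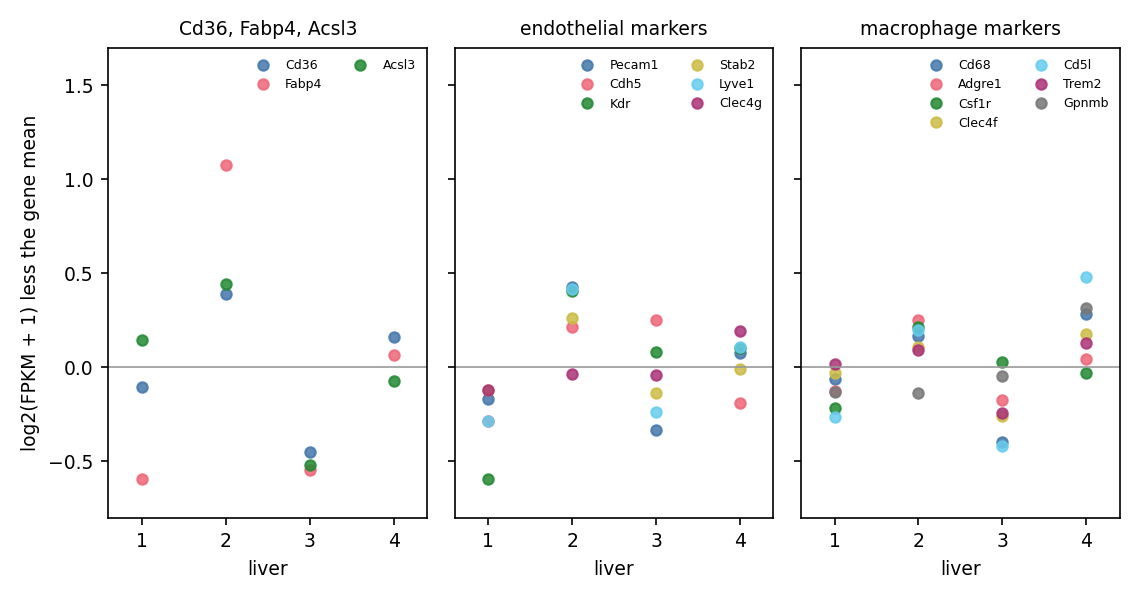
Deviation of log2(FPKM + 1) from the mean of each gene in livers 1 to 4, for Cd36, Fabp4 and Acsl3, for 6 endothelial and for 7 macrophage markers. The 3 genes on the left are highest in liver 2, Fabp4 by 1.07 above its mean. Of the endothelial markers 4 of 6 are highest there too, while 5 of 7 macrophage markers are highest in liver 4 as deposited.

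Acsl1 had the highest level of the Acsl genes. It was below Slc27a2 in every liver, and above Slc27a5 in livers 2 and 4 but below it in livers 1 and 3. Acsl1 (chromosome 8, 46471037 to 46536051), the major synthetase of liver and fat, was at 373, 463, 459 and 539 FPKM in livers 1 to 4. Liver 1 was the lowest and liver 4 the highest, and the mean was 459 ± 67.9 FPKM (SD, n = 4). Acsl5 (chromosome 19, 55253369 to 55296628), a form of mitochondria and the endoplasmic reticulum linked to triglyceride storage, was at 138, 138, 111 and 125 FPKM. Liver 3 was the lowest, livers 1 and 2 differed by less than the counting error of up to 4.46% at the estimated depth, and the mean was 128 ± 13.1 FPKM (SD, n = 4). Acsl3 (chromosome 1, 78657825 to 78707743), found on the endoplasmic reticulum and on growing lipid droplets, was at 17.3, 21.5, 10.5 and 14.7 FPKM. Liver 2 was the highest and liver 3 the lowest, a 2.04-fold range, and the SD of 0.41 lay above that of 96.7% of expressed genes. The span of Acsl3 also holds the protein-coding gene Utp14b, which shares its start in RefSeq, so fragments of the 2 genes may not have been kept apart.

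Acsl1 held 73.2 ± 4.26% of the Acsl family's FPKM, Acsl5 20.7 ± 3.34%, Acsl4 3.59 ± 0.319% and Acsl3 2.58 ± 0.771% (each SD, n = 4). Acsl4, which prefers arachidonic acid, was nearly constant at 22.2, 22.6, 21.3 and 23.0 FPKM in livers 1 to 4. Acsl3 was therefore close to Acsl4 in liver 2, where the ratio of Acsl4 to Acsl3 was 1.05, and well below it in liver 3, where the ratio was 2.03. The ratio of Acsl1 to Acsl5 was 2.7, 3.35, 4.14 and 4.33 in livers 1 to 4, lowest in liver 1. Acsl6 was at most 0.0979 FPKM.

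**Figure D3:**
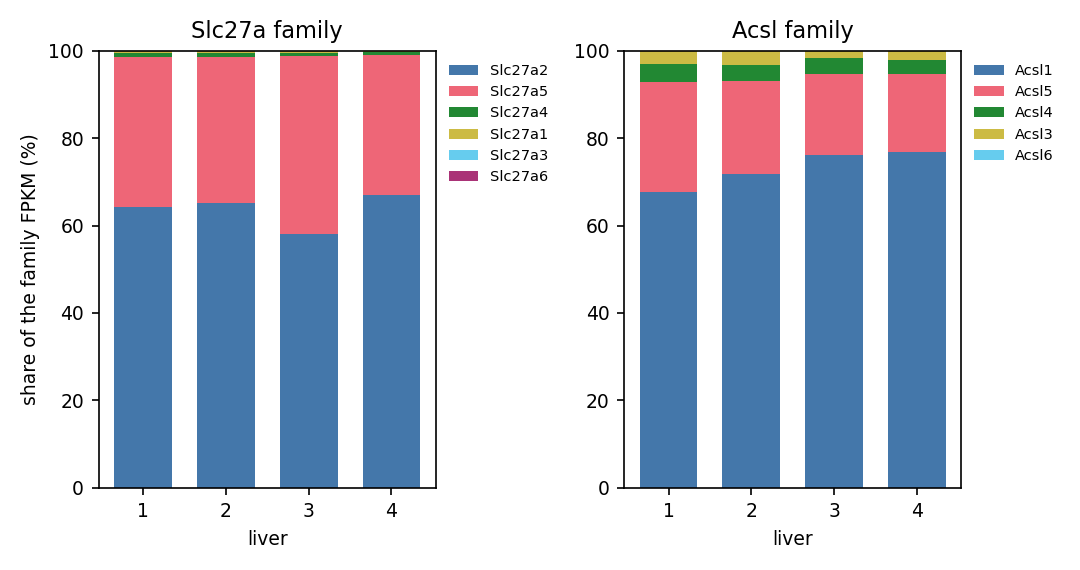
Share of the summed FPKM of the Slc27a family (6 genes) and of the Acsl family (5 genes) held by each gene, in percent, for livers 1 to 4. Slc27a2 holds between 58.0% (liver 3) and 67.0% (liver 4), and Acsl1 between 67.8% (liver 1) and 76.9% (liver 4); genes under 1% are hardly visible.

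By their means the 9 genes were ordered Fabp1, Slc27a2, Acsl1, Fabp2, Acsl5, Cd36, Fabp4, Acsl3 and Slc27a4. Of the 8 pairs of neighbours, 4 had ranges over the livers that did not overlap. Fabp1 was 11.98-fold above Slc27a2, Slc27a2 was 1.94-fold above Acsl1, Acsl1 was 3.22-fold above Fabp2 and Acsl5 was 2.48-fold above Cd36, each as a geometric mean of FPKM + 1 and each higher in 4 of 4 livers. Fabp2 and Acsl5 did not differ beyond their spread, with a mean difference of 0.14 ± 0.22 on the log2 scale (SD, n = 4). The same held for Fabp4 and Acsl3 (0.15 ± 0.57) and for Acsl3 and Slc27a4 (0.37 ± 0.41), each higher in 3 of 4 livers. Cd36 exceeded Fabp4 in 4 of 4 livers, by 1.5 ± 0.49, but Fabp4 in liver 2 lay just above Cd36 in liver 3. With 4 livers, a two-sided exact permutation test of such paired differences cannot pass 0.05, so no p-value is given.

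Across the livers the members did not move as 1 block. As deposited, Fabp1, Slc27a2, Acsl1 and Fabp2 were highest in liver 4, where 33.3% of expressed genes were highest. Scaling each liver to the same total left 3 of them, as Fabp1 was then highest in liver 1. Of the 6 hepatocyte markers 4 were highest in liver 4 too, as deposited, with a median deviation of 0.27. Ttr and Serpina3k were only 1.07-fold and 1.03-fold above the next liver, so the count of markers depends on the scaling. Cyp2e1, a cytochrome of central hepatocytes, was at 5236, 4387, 4618 and 7788 FPKM in livers 1 to 4. The part of hepatocyte content in the levels of liver 4 was not tested. Cd36, Fabp4 and Acsl3 were highest in liver 2, where 22.0% of expressed genes were, and Acsl5 was highest there by a difference within counting error. Slc27a4 was highest in liver 1, as were 17.9% of expressed genes, by 1.04-fold over the next liver. Liver 3 was the lowest for 6 of the 9 genes and the highest for 0, while it was the lowest for 31.4% of expressed genes. All 6 acute phase genes were lowest in liver 3 as well, with a median deviation of -1.20, and Hba-a1, an alpha globin of red cells, was lowest there in both of its entries, by deviations of -0.82 and -1.01. The other erythroid marker, Alas2, the first enzyme of heme synthesis in red cells, was highest in liver 3, at 55.8, 43.8, 64.0 and 57.0 FPKM in livers 1 to 4. Hepatocyte markers had a median deviation of 0.08 in liver 3, with 2 of 6 highest and 1 of 6 lowest there. The part of these transcripts in the levels of liver 3 was not tested. The median deviation of the members from their means was -0.21 in liver 3 and 0.16 in liver 4, beside -0.01 and 0.04 over all expressed genes. The value for liver 4 was 0.07 when each liver was scaled to the same total and 0.01 when liver 3 was left out. In liver 1 it was 0.05 and in liver 2 it was 0.03, beside -0.01 and -0.02.

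**Figure D4:**
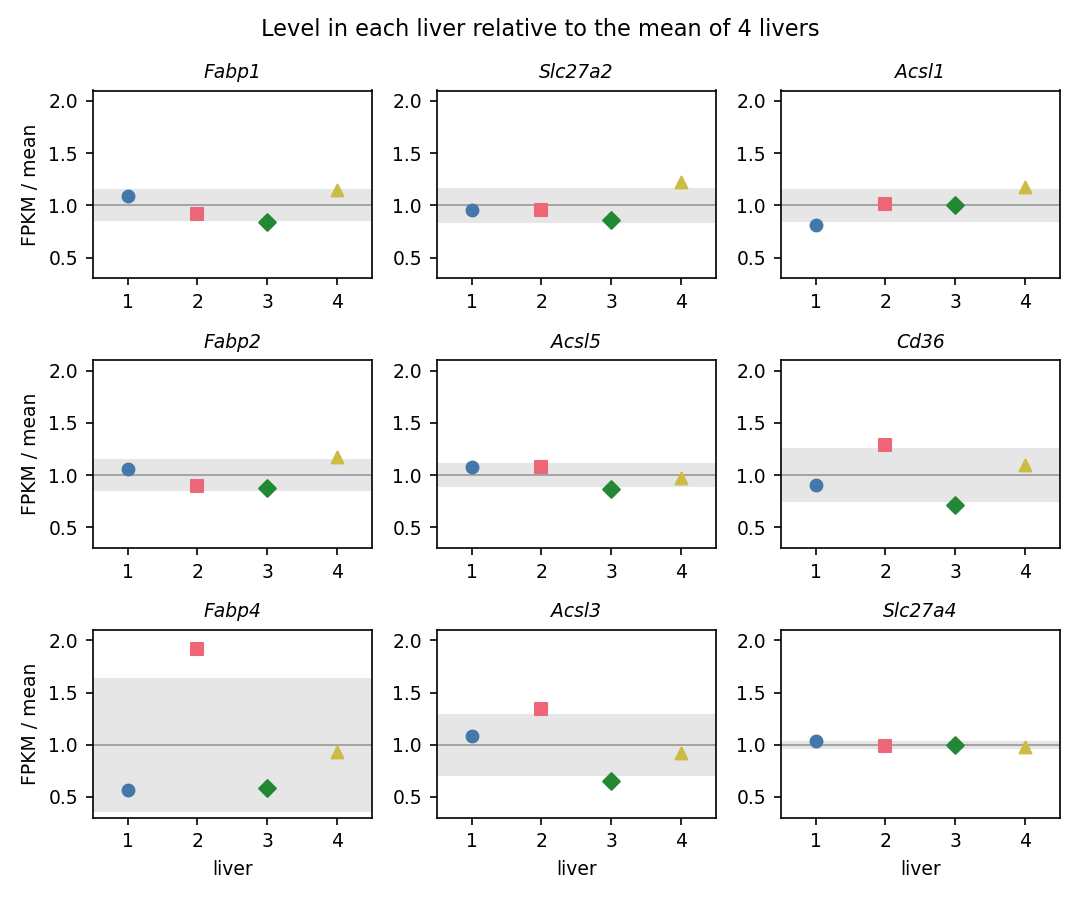
FPKM of each gene in livers 1 to 4 divided by its mean; the grey band is the mean ± 1 SD over the 4 livers. Fabp4 in liver 2 lies farthest out, Cd36 and Acsl3 are highest in liver 2 and lowest in liver 3, and Slc27a4 lies close to its mean throughout.

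The median SD of the members was 0.22 and that of all expressed genes 0.16, an order that turned when each liver was scaled to the same total, at 0.166 and 0.171. A range of at least 1.5-fold in FPKM + 1 was found for 3 members, Cd36, Fabp4 and Acsl3, a count of 3 of 9 beside 15.9% of expressed genes. All 3 were highest in liver 2, a pattern with such a range that 4.32% of expressed genes had. Without liver 2 the ranges were 1.53-fold, 1.58-fold and 1.59-fold, so the 3 genes passed among the other livers too. Without liver 3 only Fabp4 passed, as Cd36 had a 1.41-fold and Acsl3 a 1.43-fold range. No member had a single liver past the 95% critical value of Dixon's ratio (0 of 9), which 5.46% of expressed genes passed.

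**Figure D5:**
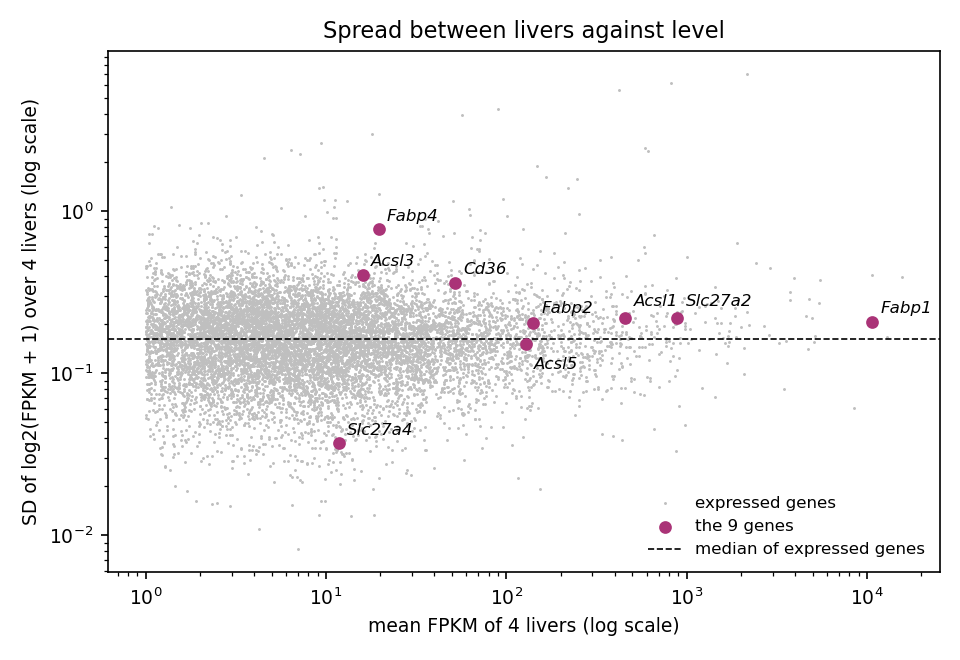
SD of log2(FPKM + 1) over the 4 livers against mean FPKM, both on log scales, for 10541 expressed genes (grey) and the 9 genes (purple); the dashed line is the median of 0.16. Fabp4 lies at 0.78 and Slc27a4 at 0.04, with the others between 0.15 and 0.41.

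The genes whose deviations lay nearest to those of these 3 members were named by the root-mean-square difference over the 4 livers, among the 6537 genes that averaged 5 FPKM or more. A likeness to the member in the order of livers therefore follows from the choice. For Cd36 they were Fcgr4 (0.02), an Fc receptor of myeloid cells, Nme2 (0.03), a nucleoside diphosphate kinase, and Clec1b (0.03), the CLEC-2 receptor. Fcgr4 was at 5.43, 8.27, 4.02 and 6.82 FPKM in livers 1 to 4, in the same order of livers as Cd36. For Fabp4 they were Itih4 (0.22), Lrg1 (0.25) and Apcs (0.29), which encode secreted acute phase proteins. Itih4 was at 430, 960, 431 and 518 FPKM, also with liver 2 highest and livers 1 and 3 close together. For Acsl3 they were Col1a2 (0.05), a chain of type I collagen, Nt5c3 (0.07) and Nucb2 (0.08). Col1a2 was at 28.3, 36.4, 18.6 and 23.7 FPKM.

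Of 87 other genes of the pathway in the table, 69 were expressed and 19 of these had a range of at least 1.5-fold, beside 15.9% of all expressed genes, with a median SD of 0.20. Among acyl-CoA carriers, Dbi, the acyl-CoA binding protein, was at 1868, 2162, 1485 and 1887 FPKM in livers 1 to 4. Scp2, which carries sterols and acyl-CoA and supplies a peroxisomal thiolase, was at 1854, 1836, 1636 and 2172 FPKM. Both were lowest in liver 3. The ratio of Fabp1 to Scp2 lay between 5.34 and 6.23 and that of Fabp1 to Dbi between 4.53, in liver 2, and 6.5, in liver 4. Got2, a mitochondrial aminotransferase also described as a fatty acid binding protein of the plasma membrane, was at 311, 290, 295 and 380 FPKM, with liver 4 highest. Of the 8 genes of other uptake routes, 3 had a range of at least 1.5-fold, beside 15.9% of expressed genes. The caveolin Cav1 was at 3.10, 2.32, 2.24 and 1.66 FPKM, low in every liver.

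Of 11 genes for lipases inside and outside cells and their regulators, 3 had such a range, Gpihbp1, Angptl8 and Mgll, beside 15.9% of expressed genes. Lpl, lipoprotein lipase, was at 34.6, 31.1, 29.4 and 39.1 FPKM, and Gpihbp1, its anchor on capillary endothelium, was at 11.9, 24.9, 19.4 and 24.5 FPKM, with liver 1 alone low. Angptl8, an insulin-induced inhibitor of lipoprotein lipase that the table lists as Gm6484, was at 34.8, 28.3, 144 and 41.7 FPKM, so that liver 3 was far above the others. Its entry spans 21800180 to 21852635 on chromosome 9, and whether fragments of other genes in that span entered the value was not examined. Mgll, the monoglyceride lipase that acts inside cells, was at 114, 84.0, 117 and 134 FPKM, with liver 2 low. The medium-chain synthetases Acsm1, Acsm3 and Acsm5 and the others of that list showed 0 of 7 expressed genes with a range of at least 1.5-fold, beside the same 15.9%.

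Of 13 regulators, 7 were highest in liver 3, where 6 of the 9 members were lowest and where 26.8% of expressed genes were highest. Ppara was at 61.9, 55.7, 58.1 and 66.8 FPKM and Pparg at 15.2, 22.2, 21.7 and 25.8 FPKM in livers 1 to 4. For Ppara all livers lay within a 1.20-fold range, and for Pparg liver 1 was low. Srebf1, of which 1 product drives lipogenesis, was at 166, 135, 207 and 175 FPKM. Mlxipl, the carbohydrate-responsive factor ChREBP, was at 53.0, 48.2, 79.9 and 38.7 FPKM, and Cebpa at 142, 181, 293 and 160.0 FPKM. Both were highest in liver 3, as were Srebf1 and Hnf4a. Whether the opposite position of liver 3 in regulators and members has a common source was not tested.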

How the data were processed

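Liver RNA of 4 mice in 1 group was analysed. The authors' deposited table holds 1 FPKM value per gene and liver. The unit is inferred from the values and from identifiers of the form Cufflinks writes. Per the submitters' processing notes, mm10, FastQC 0.10.1, Trim Galore 0.6.3, cutadapt, STAR 2.7.6a and Cufflinks 2.2.1 were used, and their settings are not given in the sources used here. Columns were matched through sample descriptions, and 0 were unmatched. Cufflinks assigns shared fragments by a model, so overlapping genes are estimates. Table starts were raised by 1. No counts are held, so no count model was used. Depth was estimated from genes with 1 transcript over 800 bases, less 200 bases, within a window around the lowest values. In livers 2 and 4 the search without that window ran to its upper edge, so depth and counting errors there rest on the window.

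Spread was the SD of log2(FPKM + 1). With 1 group no test between groups exists, and p-values are not given. Replicates are separate livers by label. The members and the 22 gene lists (11 pathway, 11 marker; 156 of 158 symbols found, 3 by RefSeq synonym) were chosen with earlier results of these data known. Named genes are the members, expressed genes of the pathway lists, markers, and the 3 nearest patterns of members with a range of at least 1.5-fold. Genes of the Fabp, Slc27a and Acsl families below 1 FPKM are named in addition, outside that rule, to account for each family. Statistics were tested on simulated data. Python 3.11.15, numpy 2.4.6 and pandas 2.3.3 were used. Alternatives were other pseudocounts, filters and scalings, and leaving out each liver.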

Additional observations from a re-analysis of the deposited data

Results flagged for a closer look

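A single liver lay past the 95% critical value of Dixon's ratio in 7 of 100 sets of 4 values examined, computed on FPKM, shares and ratios without a logarithm, and chance alone flags about 1 in 20. The summed FPKM of the Slc27a family was 1628 in liver 4 and between 1302 and 1326 in the others. The share of Slc27a4 in that family was 0.707% in liver 4 and between 0.894% and 0.925% in the others, while its FPKM hardly varied. Among other genes of the pathway, Angptl8 (listed as Gm6484) reached 144 FPKM in liver 3, while the other livers lay between 28.3 and 41.7 FPKM. Ppard, the delta form of PPAR, reached 5.88 FPKM in liver 3, while the other livers lay between 2.65 and 2.96 FPKM. Acot11, a thioesterase, reached 4.80 FPKM in liver 3, while the other livers lay between 3.25 and 3.50 FPKM. Ahr, a xenobiotic receptor, reached 5.23 FPKM in liver 1, while the other livers lay between 3.85 and 4.03 FPKM. Acbd4, an acyl-CoA binding protein, was low in liver 4, at 15.2 FPKM, while the other livers lay between 16.7 and 16.9 FPKM. On log2(FPKM + 1), the scale of the counts over expressed genes, Angptl8 and Acot11 did not pass. Acss2, a cytosolic acetyl-CoA synthetase, passed on that scale: liver 4 was low at 61.3 FPKM, while livers 1 to 3 spanned 79.9 to 84.0 FPKM.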

How the results depend on the processing

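Scaling each liver to the same total, which lowers liver 4, gave a median SD of the members of 0.166, below the 0.171 of all expressed genes, so the order of these medians turned. Under the same scaling 1 member was left in the order of livers of Fabp1 and 3 members were highest in liver 4. Both counts were added after seeing the data. Leaving out a liver in turn gave a median SD from 0.18 to 0.26 and between 1 and 3 members with a range of at least 1.5-fold, the lowest count without liver 3. Shares within the listed members alone were 98.5% for Fabp1 and 98.7% for Slc27a2, since the latter leaves out Slc27a5. The median deviation over the 9 members in liver 3 was negative under every alternative run, from -0.22 to -0.16. In liver 4 it lay between 0.01, without liver 3, and 0.19, without liver 2. In livers 1 and 2 it changed sign, to -0.03 in liver 1 without liver 3 and to -0.00081 in liver 2 without liver 1. Dixon's ratio was not computed for 3 livers. No paired analysis was possible because there is 1 group, so no groups could be paired. Depth is estimated, in livers 2 and 4 only within a chosen window, so values under 1 FPKM rest on few fragments.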

Other observations

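Acyl-CoA thioesterases release the fatty acid from coenzyme A and so oppose the synthetases. Of 10 expressed genes, 6 had a range of at least 1.5-fold, beside 15.9% of all expressed genes, and the difference was not tested. Acot3, a peroxisomal form, was at 6.42, 15.3, 4.46 and 19.5 FPKM in livers 1 to 4, with livers 2 and 4 high and livers 1 and 3 low. Its neighbours Acot4 and Acot1 lie in the same cluster of closely related genes, between which fragments may be shared. Acot4 was at 14.7, 22.4, 13.5 and 21.9 FPKM, and Acot1, the cytosolic form, was at 17.6, 20.4, 16.3 and 25.5 FPKM. All 3 were lowest in liver 3, like Cd36, Fabp1 and Slc27a2.

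Transcripts for entry into mitochondria were highest in liver 4, as deposited, for all 4 expressed genes of that list. For Cpt2 and Crat liver 4 was only 1.06-fold and 1.04-fold above the next liver. The summed FPKM of all genes was 570681 in liver 4 and 516816 to 524394 in the others, so the calls for Cpt2 and Crat depend on the scaling. Cpt1a, the outer membrane carnitine acyltransferase, was at 209, 197, 226 and 264 FPKM in livers 1 to 4. Slc25a20, the carnitine-acylcarnitine carrier, was at 77.1, 76.3, 73.9 and 92.4 FPKM. None of the 4 had a range of at least 1.5-fold, and 33.3% of expressed genes were highest in liver 4.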
